A study of Mus musculus with 6 samples.

Results

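Matrix metalloproteinases and their tissue inhibitors, the TIMPs, were followed in 10 genes, which are Mmp2, Mmp3, Mmp9, Mmp12, Mmp14, Mmp19 and Timp1 to Timp4, out of 18089 genes in the count table. Their NCBI gene identifiers in the table are 17390 (Mmp2), 17392 (Mmp3), 17395 (Mmp9), 17381 (Mmp12), 17387 (Mmp14), 58223 (Mmp19), 21857 (Timp1), 21858 (Timp2), 21859 (Timp3) and 110595 (Timp4), with Mmp3 and Mmp12 on chromosome 9 and Mmp19 and Timp3 on chromosome 10. They were chosen by name from the enzyme and inhibitor families, with the summed counts of the same 6 libraries and earlier results of the same comparison in view and with no threshold on a value. Their counts, fold changes and p values therefore describe these libraries, and nothing is read from how many of the 10 passed a test. RNA came from the ischemic gastrocnemius of male C57BL/6 mice aged 8 to 10 weeks, taken 7 days after hindlimb ischemia (HLI), in which the left femoral artery was tied off and the tied segment cut out. The groups were 3 wild-type (WT) and 3 GPR174-KO samples, the latter from Gpr174-/Y mice, in which this X-linked receptor gene was disrupted in the whole animal, with no Cre or tissue promoter named. The controls carried no other allele or treatment in the labels. All 6 samples were ischemic, so no value compares ischemic with uninjured muscle. In a whole muscle, fewer cells of a type and less RNA per cell cannot be told apart.

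Matrix metalloproteinases are zinc proteases that are made as inactive proenzymes and cut collagens, elastin and other proteins outside the cell once their propeptide is removed. TIMPs bind the active site of the mature enzymes, and Timp2 also takes part in the activation of pro-Mmp2 at the cell surface by Mmp14, a protease anchored in the membrane. In injured muscle these enzymes are known for the clearance of damaged matrix, the passage of leukocytes and the release of growth factors held in the matrix, and their control lies as much in activation and inhibition as in the amount of messenger RNA measured here.

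Library totals ranged from 18417107 to 18695036 estimated counts in WT and from 19173051 to 19394505 in GPR174-KO. Values are given as CPM, counts relative to a library total scaled by the TMM method, on which 3 counts, taken as the smallest detectable number, correspond to between 0.140 and 0.187 CPM for counting error only. The disrupted gene was at the limit of detection. Gpr174 had 8 counts in WT replicate 1, 2 in replicate 2 and 5 in replicate 3, against 1, 0 and 0 in GPR174-KO, and was at least 2.12-fold lower against a floor of 3 counts per library. Replicate 2 lay between replicates 1 and 3 for 71.7% of the tested genes in WT and 64.1% in GPR174-KO. WT replicate 3 was the WT library closest to the GPR174-KO libraries for most of the changes below, so values are given library by library.

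Promoter sequence is shown as a description only. Egr1, which encodes the zinc-finger transcription factor of the study, was higher in GPR174-KO (83.6 against 42.7 CPM). Its log2 fold change was 0.97 (SE 0.07, adjusted p = 0.000477 in edgeR's quasi-likelihood test). The part of Egr1 in the values of the 10 genes was not tested. The RefSeq promoter table, on build GRCm38.p6, held 8 windows for 7 of the 10 genes, and Mmp2, Mmp9 and Mmp19 had none. The 250 bases before each start were searched on both strands for the AP-1 letters TGANTCA, whose reverse complement has the same letters, and for the EGR1 letters GCGNGGGCG. The AP-1 letters were found in 2 of the 8 windows, which belong to Mmp12 and Mmp3, against 6.75% of all 32851 promoter windows of that length. The EGR1 letters were found in the window of Mmp14, against 4.70% of all windows. The 3 sequences with a match follow, each on the plus strand, 5′ to 3′, with the matched letters in capitals. They are the second Mmp12 window at chr9:7347124-7347373, with the match beginning 44 bases before the start, Mmp3 at chr9:7445572-7445821, with the match beginning 46 bases before the start, and Mmp14 at chr14:54431348-54431597, with the match beginning 17 bases before the start.
Mmp12: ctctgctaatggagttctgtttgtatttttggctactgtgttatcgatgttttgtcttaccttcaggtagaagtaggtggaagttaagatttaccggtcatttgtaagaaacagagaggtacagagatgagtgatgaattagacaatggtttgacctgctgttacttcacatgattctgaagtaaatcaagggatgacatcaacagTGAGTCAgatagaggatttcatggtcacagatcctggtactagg
Mmp3: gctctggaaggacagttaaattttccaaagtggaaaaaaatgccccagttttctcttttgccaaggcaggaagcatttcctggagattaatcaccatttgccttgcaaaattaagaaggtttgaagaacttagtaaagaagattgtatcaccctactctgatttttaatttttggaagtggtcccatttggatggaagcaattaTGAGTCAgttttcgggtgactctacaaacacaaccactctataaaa
Mmp14: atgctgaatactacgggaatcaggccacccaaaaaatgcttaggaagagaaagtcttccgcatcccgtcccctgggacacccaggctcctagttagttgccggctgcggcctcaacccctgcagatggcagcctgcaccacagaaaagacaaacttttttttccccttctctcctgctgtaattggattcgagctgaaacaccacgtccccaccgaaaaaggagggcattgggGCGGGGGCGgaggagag
The other Mmp12 window and the windows of Timp1, Timp2, Timp3 and Timp4 held neither set of letters. A match is a description of these letters in this window and was not tested for binding.

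Of the 10 genes, 7 had an adjusted p under 0.05, where 54.6% of the 14395 genes tested did. Those higher in GPR174-KO were Mmp9, Mmp12, Mmp14, Mmp19 and Timp1 (27.0% of all genes tested), and those lower were Timp3 and Timp4 (27.6%). With an absolute log2 fold change above 1 as well, 4 of the 10 remained, Mmp9, Mmp12 and Timp1 higher and Timp4 lower, where 8.28% of all genes did, 3.45% higher and 4.84% lower. For 9 of the 10, all but Mmp2, the ranges of the groups were separate, as they were for 65.6% of all genes. The median log2 fold change was 0.40 for the 10 genes and 0.0037 for all genes tested. All 10 passed the filter on low counts. Scaling by total counts in place of TMM moved the median of all genes up by 0.27 on the log2 scale and turned the split of genes past both thresholds from 496 higher and 696 lower to 1144 higher and 354 lower, so each direction below is relative to the bulk of genes as TMM places it.

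**Figure D1:**
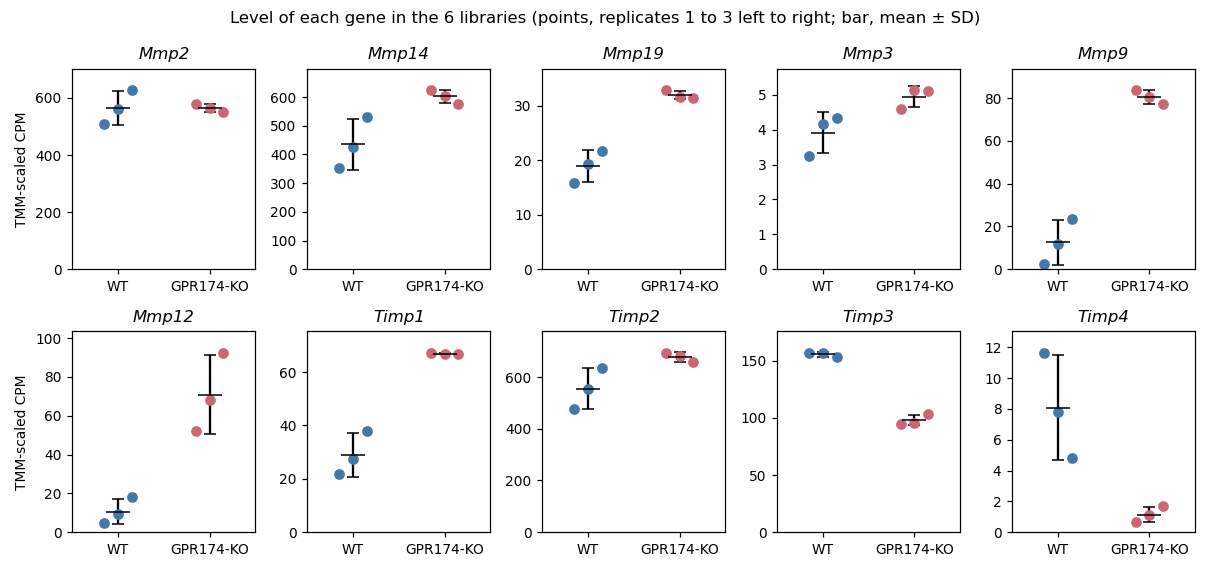
TMM-scaled CPM, on a linear axis from 0 of its own for each of the 10 genes, in the 3 WT and 3 GPR174-KO libraries, with 1 point per library and a bar for the group's mean ± SD. The WT points of Mmp9 span 2.55 to 23.7 CPM while the GPR174-KO points lie between 77.4 and 83.8 CPM, and Mmp2 is the one gene whose groups overlap.

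The gelatinases Mmp9 and Mmp2, which cut denatured collagen and the type IV collagen of basement membranes, behaved differently. Mmp9 was 2.55, 11.6 and 23.7 CPM in WT replicates 1, 2 and 3 and 83.8, 80.6 and 77.4 CPM in GPR174-KO replicates 1, 2 and 3. The GPR174-KO libraries were nearly level and the lowest of them was 3.27-fold above the highest WT library, while the WT libraries were far apart. The group means were 12.6 ± 10.6 and 80.6 ± 3.19 CPM (SD, n = 3 each), 6.39-fold higher in GPR174-KO. The log2 fold change was 2.66 (SE 0.56, adjusted p = 0.00718, edgeR). Mmp2 was 509.8, 559.7 and 627.6 CPM in WT replicates 1, 2 and 3 and 580.3, 564.6 and 549.9 CPM in GPR174-KO replicates 1, 2 and 3. All 3 GPR174-KO libraries lay inside the WT range. The log2 fold change was -0.0021 (SE 0.09, adjusted p = 0.987), and its sign was positive under total-count scaling (0.27, adjusted p = 0.0739), so no direction is given for Mmp2.

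Mmp12, the macrophage elastase, which cuts elastin and is made mainly by macrophages, had one of the 2 largest increases among the 10 genes. Its level was 4.85, 9.17 and 17.9 CPM in WT replicates 1, 2 and 3 and 51.9, 68.4 and 92.4 CPM in GPR174-KO replicates 1, 2 and 3. Both groups were spread, with the highest library of each at replicate 3, and the lowest GPR174-KO library was 2.90-fold above the highest WT library. The means were 10.6 ± 6.66 and 70.9 ± 20.3 CPM, 6.66-fold higher in GPR174-KO (log2 fold change 2.72, SE 0.42, adjusted p = 0.00259, edgeR).

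Mmp14, the membrane-anchored collagenase that activates pro-Mmp2, was 352.7, 425.7 and 529.5 CPM in WT replicates 1, 2 and 3 and 624.5, 604.6 and 577.4 CPM in GPR174-KO replicates 1, 2 and 3. The groups did not overlap, but the lowest GPR174-KO library was only 1.09-fold above WT replicate 3. The difference was 1.38-fold (log2 fold change 0.47, SE 0.14, adjusted p = 0.0309, edgeR). It was not past the threshold without WT replicate 2 (adjusted p = 0.0946), GPR174-KO replicate 1 (0.0922), GPR174-KO replicate 2 (0.0857) or GPR174-KO replicate 3 (0.0675), nor with a replicate block (0.057). Mmp19, a secreted protease that cuts basement membrane proteins, had a smaller spread. Mmp19 was 15.8, 19.3 and 21.7 CPM in WT replicates 1, 2 and 3 and 32.9, 31.6 and 31.5 CPM in GPR174-KO replicates 1, 2 and 3. Every GPR174-KO library was above every WT library by at least 1.45-fold, and the means differed 1.69-fold (log2 fold change 0.76, SE 0.11, adjusted p = 0.00201). Mmp3, stromelysin 1, which cuts many matrix proteins and other pro-metalloproteinases, was the least abundant of the 6 proteases in GPR174-KO on the TPM scale explained below. Its counts were 52, 70 and 77 in WT replicates 1, 2 and 3 and 96, 109 and 110 in GPR174-KO replicates 1, 2 and 3, or 3.91 ± 0.589 and 4.95 ± 0.310 CPM. The groups did not overlap, yet the log2 fold change of 0.34 (SE 0.13) did not pass edgeR's test (adjusted p = 0.0699). Without WT replicate 3 it did (0.42, adjusted p = 0.0336), as it did under total-count scaling (0.61, adjusted p = 0.0126).

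**Figure D2:**
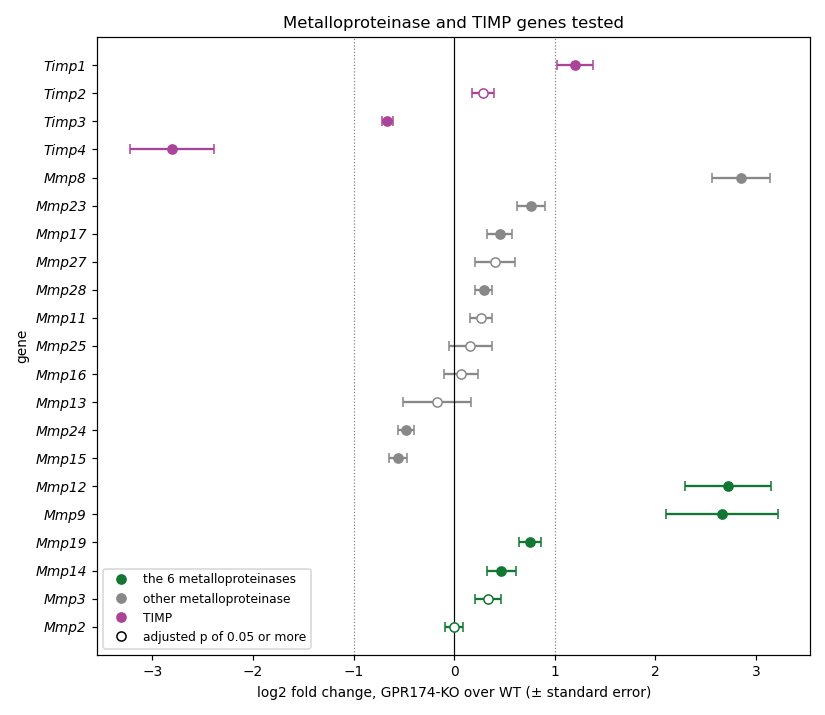
Log2 fold change of GPR174-KO over WT with bars of 1 SE from edgeR's fit, for the 6 metalloproteinases, the 4 TIMPs and 11 other metalloproteinases (grey), with points filled where the adjusted p was under 0.05 and dotted lines at -1 and 1. Mmp12 at 2.72 and Mmp9 at 2.66 lie at the upper end and Timp4 at -2.81 at the lower end; the point of Mmp8, with at most 3 counts in any WT library, depends on the prior count of the fit.

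The 4 inhibitors did not move as 1 group. Timp1, a secreted inhibitor of most metalloproteinases that is known to be induced in injured tissue, was 21.7, 27.5 and 37.9 CPM in WT replicates 1, 2 and 3 and 67.1, 66.6 and 66.9 CPM in GPR174-KO replicates 1, 2 and 3. The GPR174-KO libraries agreed to within 1.01-fold and the WT libraries to within 1.75-fold, with no overlap. The means were 29.0 ± 8.21 and 66.9 ± 0.276 CPM, 2.31-fold higher in GPR174-KO (log2 fold change 1.20, SE 0.18, adjusted p = 0.00224, edgeR). Timp2, the inhibitor that also takes part in pro-Mmp2 activation, was 478.1, 554.7 and 634.1 CPM in WT replicates 1, 2 and 3 and 693.2, 682.3 and 656.7 CPM in GPR174-KO replicates 1, 2 and 3. The gap between the groups was 1.04-fold, and the log2 fold change of 0.29 (SE 0.11) did not pass (adjusted p = 0.0628). It passed without WT replicate 3 (0.40, adjusted p = 0.0022) and under total-count scaling (0.55, adjusted p = 0.00988).

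Timp3, which binds to the matrix and also inhibits several ADAM proteases, was lower in GPR174-KO. Timp3 was 156.9, 156.9 and 153.3 CPM in WT replicates 1, 2 and 3 and 94.9, 96.0 and 103.3 CPM in GPR174-KO replicates 1, 2 and 3. Both groups were tight and the lowest WT library was 1.48-fold above the highest GPR174-KO library. The means of 156 ± 2.09 and 98.1 ± 4.54 CPM differed 1.59-fold (log2 fold change -0.67, SE 0.05, adjusted p = 0.00062, edgeR), and the log2 fold change under total-count scaling was -0.39. Timp4, the inhibitor known for its restricted distribution in heart, muscle and fat, had the largest decrease of the 10 genes. Its counts were 187, 131 and 86 in WT replicates 1, 2 and 3 and 14, 23 and 36 in GPR174-KO replicates 1, 2 and 3, or 11.6, 7.80 and 4.83 against 0.669, 1.08 and 1.67 CPM. WT replicate 3 was the lowest of its group and GPR174-KO replicate 3 the highest of its own, and the lowest WT library was still 2.89-fold above the highest GPR174-KO library. Timp4 was 7.08-fold higher in WT (log2 fold change -2.81, SE 0.42, adjusted p = 0.00227).

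Several of these genes share genomic space with others in the RefSeq and GENCODE annotation of GRCm38, and the sources used here do not say whether reads were counted by strand. Timp1, Timp3 and Timp4 each lie within a synapsin gene on the opposite strand, Syn1, Syn3 and Syn2 respectively. These host genes, like the others outside the fixed lists, were chosen after their values were seen. Of the exonic bases, 0 of 888 were shared for Timp1, 1733 of 8144 for Timp3 and 90 of 5894 for Timp4. Syn3 had 20 to 43 counts in any library against 1986 to 2728 for Timp3. The count of Syn2 was 426, 418 and 369 in the WT libraries and 242, 215 and 219 in the GPR174-KO libraries, in replicate order. Syn2 was thus lower in GPR174-KO as Timp4 was (log2 fold change -1.18, SE 0.11, adjusted p = 0.000778), and reads of the shared bases cannot be told apart. Mmp19 shared 789 of its 3533 exonic bases with Tmem198b on the other strand, whose count was 403, 427 and 493 in the WT libraries and 694, 698 and 649 in the GPR174-KO libraries. The part of these overlaps in the changes of Timp3, Timp4 and Mmp19 was not tested.

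The spread within WT was itself uneven between the genes. The highest over the lowest WT library was 9.29 for Mmp9, and only 0.139% of the 13636 genes with a mean of at least 1 CPM were more spread. It was 3.69 for Mmp12 (0.777% of genes more spread) and 1.02 for Timp3 (96.7%), where the median over all tested genes was 1.19. In GPR174-KO the ratio was 2.50 for Timp4 (0.389% of genes more spread) and 1.78 for Mmp12 (1.60%), against a median of 1.10. Mmp9, by contrast, was at 1.08 in GPR174-KO.

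Levels of different genes were compared as TPM, a measure relative to each library's sum that corrects for transcript length. On the TPM scale Mmp2 (321 ± 49.7), Timp2 (267 ± 50.8) and Mmp14 (200.0 ± 50.8) were the most abundant in WT. The ranges of neighbours overlapped between libraries, but the 3 genes kept this order within each WT library. Timp1 (59.7 ± 19.8) and Timp3 (57.4 ± 2.17) followed and overlapped with each other. Mmp12 (10.5 ± 6.98), Mmp19 (9.98 ± 2.07), Mmp9 (7.10 ± 6.20), Timp4 (4.71 ± 1.78) and Mmp3 (3.83 ± 0.738) were the lowest, and each neighbour in that order overlapped with the next. In GPR174-KO the TPM order was Timp2 (425 ± 3.02), Mmp2 (418 ± 3.17), Mmp14 (359 ± 2.08), Timp1 (179 ± 5.77), Mmp12 (88.1 ± 28.7), Mmp9 (57.8 ± 0.391), Timp3 (47.5 ± 3.78), Mmp19 (21.8 ± 0.316), Mmp3 (6.34 ± 0.584) and Timp4 (0.890 ± 0.423). There only the ranges of Timp2 and Mmp2 overlapped, and Timp2 was above Mmp2 within each GPR174-KO library. Mmp12 and Mmp9 thus stood below Timp3 in every WT library and above it in every GPR174-KO library. TPM is scaled to each library's sum, and on it Mmp2 did not overlap between the groups (274.8 to 373.5 in WT, 416.3 to 421.9 in GPR174-KO), unlike on the TMM scale.

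Shares within each family do not depend on how libraries are scaled. Of the summed TPM of the 4 TIMPs, Timp1 made up 13.1, 14.6 and 17.5% in WT replicates 1, 2 and 3 and 27.2, 27.2 and 27.8% in GPR174-KO. Timp3 made up 17.1, 15.1 and 12.9% in WT and 6.95, 7.11 and 7.78% in GPR174-KO. Timp1 and Timp3 were thus near level in WT, while Timp1 was the second TIMP by a wide margin in GPR174-KO. Timp2 was the main TIMP in every library, at 67.7 to 69.1% in WT and 64.2 to 65.8% in GPR174-KO. Timp4 made up 2.04, 1.20 and 0.650% in WT and 0.0781, 0.128 and 0.202% in GPR174-KO.

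Among the 6 metalloproteinases, the Mmp2 share of summed TPM was 61.8, 58.6 and 55.3% in WT replicates 1, 2 and 3 and 45.0, 44.0 and 42.9% in GPR174-KO. Mmp12 took 1.00, 1.65 and 2.68% in WT and 6.67, 8.88 and 12.1% in GPR174-KO. Mmp9 took 0.299, 1.18 and 2.02% in WT and 6.29, 6.09 and 5.84% in GPR174-KO. Mmp12 and Mmp9 together were thus a minor part of the metalloproteinase transcripts in WT and a visible one in GPR174-KO, while the Mmp14 share overlapped between the groups (34.5 to 37.6% and 36.3 to 39.1%).

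**Figure D3:**
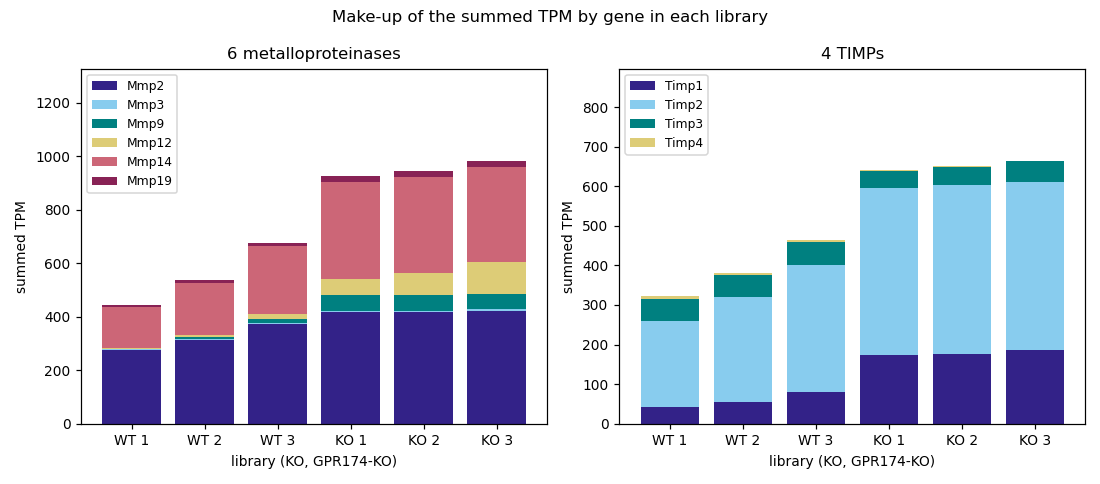
Summed TPM of the 6 metalloproteinases (left) and of the 4 TIMPs (right), 1 stacked bar per library with 1 colour per gene. The Timp1 segment is 42.3 to 81.2 TPM in WT and 174 to 185 TPM in GPR174-KO (KO), and Timp2 is the main TIMP in all 6 bars.

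Ratios of transcripts were formed for enzymes and the inhibitors that bind them, as descriptions of messenger RNA and not of activity. The sum of the 6 metalloproteinases over the sum of the 4 TIMPs, in TPM, was 1.38, 1.41 and 1.46 in WT and 1.45, 1.45 and 1.48 in GPR174-KO (means 1.42 ± 0.040 and 1.46 ± 0.018), with overlap. The sums stayed in about the same proportion while their make-up differed. Mmp14 over Timp2, by contrast, was 0.703, 0.731 and 0.795 in WT and 0.858, 0.844 and 0.837 in GPR174-KO, without overlap. Mmp2 over Timp2 was 1.26, 1.19 and 1.17 in WT and 0.989, 0.977 and 0.989 in GPR174-KO, so Mmp2 exceeded Timp2 in WT alone. Mmp9 over Timp1 was 0.031, 0.113 and 0.168 in WT and 0.335, 0.325 and 0.311 in GPR174-KO. With Timp1 itself higher, the Mmp9 ratio was still above the WT range in every GPR174-KO library.

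The deposited table split 5 of the 10 genes over more than 1 RefSeq transcript, and the other 5 (Mmp3, Mmp9, Mmp14, Timp2 and Timp3) had a single one. For Mmp12, transcript XM_017313160.1 held 94.5 to 96.2% of the estimated count in WT and 89.7 to 91.9% in GPR174-KO. Transcript NM_001320076.1 was listed at 0 in all WT libraries and held 4.53 to 6.23% in GPR174-KO. The whole gene had 78, 154 and 319 counts in the WT libraries against 1087, 1452 and 1986 in GPR174-KO. A share of that size would be few counts in WT, so the 0 does not show that the transcript was absent there. For Timp1, NM_011593.2 held 63.9, 37.5 and 37.6% in WT replicates 1, 2 and 3 and 62.3, 65.8 and 62.4% in GPR174-KO. WT replicate 1 was thus like the GPR174-KO libraries in its Timp1 transcripts although it was the WT library with the lowest Timp1 level. For Mmp19, NM_021412.3 held 14.3 to 38.0% in WT and 36.4 to 53.5% in GPR174-KO, with overlap. Mmp2 was nearly all NM_008610.3 (98.7 to 99.4%), and Timp4 was nearly all NM_080639.4 (90.5 to 93.5% in WT, 100% in GPR174-KO). These splits are model estimates over transcripts that share most of their sequence.

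**Figure D4:**
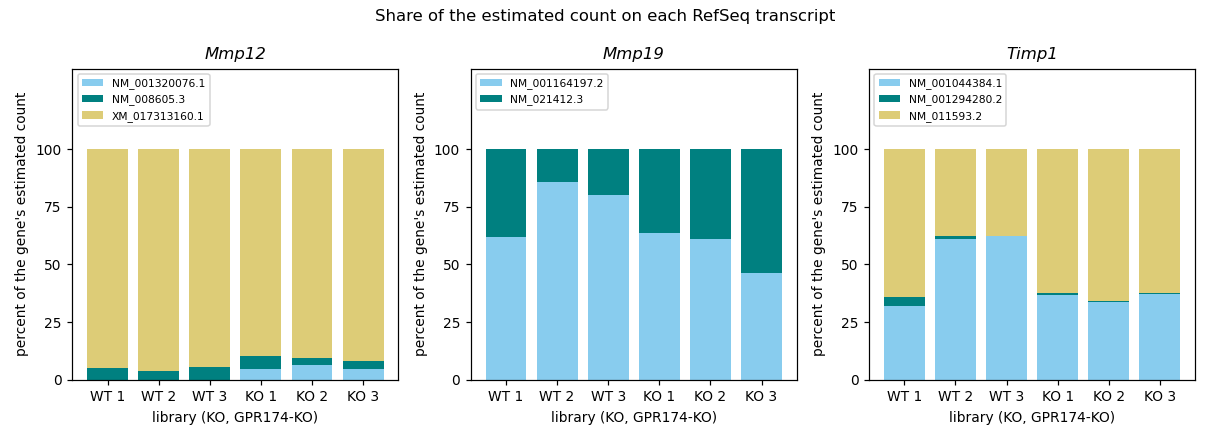
Share (%) of the estimated count of Mmp12, Mmp19 and Timp1 given to each RefSeq transcript, 1 stacked bar per library (KO, GPR174-KO). The Timp1 split of WT replicate 1 resembles the GPR174-KO libraries more than the other WT libraries.

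Mmp12 and Mmp3 belong to a run of 10 metalloproteinase genes on chromosome 9 with no other coding gene between them in the reference annotation, in the order Mmp13, Mmp12, Mmp1b, Mmp3, Mmp1a, Mmp10, Mmp8, Mmp27, Mmp20 and Mmp7. Of these, 8 were in the table and 5 had enough counts to be tested. Mmp13, the collagenase next to Mmp12, was named after its values were seen. Mmp13 was 14.3, 20.0 and 27.5 CPM in WT replicates 1, 2 and 3 and 11.1, 18.1 and 25.7 CPM in GPR174-KO replicates 1, 2 and 3. The groups overlapped almost wholly (log2 fold change -0.17, SE 0.34, adjusted p = 0.684, edgeR), although replicate 3 was the highest library of both groups for Mmp13 as for Mmp12. Mmp8, the neutrophil collagenase, also named after its values were seen, had a count of 3, 2 and 3 in the WT libraries and of 21, 25 and 29 in the GPR174-KO libraries. Against a floor of 3 counts per library it was at least 6.61-fold higher in GPR174-KO (adjusted p = 0.000888). Mmp10 had 0 to 6 counts, and Mmp1b and Mmp7 had 0 to 1, in any library, too few to compare.

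Of 17 other metalloproteinases listed, 15 were in the table and 11 were tested. Of these 4 rose, 2 fell and 5 did not pass, with a median log2 fold change of 0.27. With DESeq2 2 rose and 2 fell, and under total-count scaling 6 rose and 1, Mmp15, fell. Mmp23 rose from 22.0 ± 4.04 to 37.4 ± 3.96 CPM (log2 fold change 0.76, SE 0.14, adjusted p = 0.00446). Mmp15, a membrane-anchored relative of Mmp14, fell from 94.9 ± 10.3 to 64.4 ± 3.76 CPM (-0.56, SE 0.09, adjusted p = 0.00274). In the main fit these membrane types thus went in opposite directions, though the increase of Mmp14 passed in only 9 of 15 alternative fits. Mmp1a and Mmp20 were not analysed here.

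The ADAM proteases cut cell-surface proteins, and Adam17, the main sheddase, is inhibited by Timp3. Of 9 tested, 6 rose and 3 did not pass, with a median log2 fold change of 0.41. Adam8, known in leukocytes, rose from 29.1 ± 13.2 to 99.8 ± 4.57 CPM (1.77, SE 0.29, adjusted p = 0.00307), Adam12, known in regenerating muscle and fibroblasts, rose from 89.7 ± 25.5 to 192 ± 3.32 CPM, and Adam17 rose by 0.41 on the log2 scale (SE 0.06, adjusted p = 0.00197) while Timp3 was lower. Of 17 ADAMTS proteases tested, which process procollagens or cut proteoglycans, 8 rose, 4 fell and 5 did not pass (median 0.21). Adamts14, a procollagen N-propeptidase, rose from 24.1 ± 3.54 to 56.3 ± 2.25 CPM and Adamts4, an aggrecanase, from 29.8 ± 3.20 to 51.4 ± 2.80 CPM. Adamts16 rose by 1.69 and Adamts6 by 1.44 on the log2 scale, whereas Adamts20 fell from 31.7 ± 1.76 to 17.1 ± 3.57 CPM.

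The plasminogen system supplies plasmin, an activator of several pro-metalloproteinases. Of 8 tested genes of this system and of the proprotein convertases, 6 rose, 1 fell and 1 did not pass, with a median log2 fold change of 0.58. Plaur, the urokinase receptor, rose from 10.5 ± 1.74 to 22.1 ± 1.48 CPM, and the plasminogen activator Plat rose by 0.61 on the log2 scale. Serpine2, a protease inhibitor that acts on plasminogen activators among others, rose by 0.76 on the same scale.

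Of 11 surface partners, clearance receptors and other regulators, 8 rose, 2 fell and 1 did not pass (median 0.79). Cd44, a hyaluronan receptor that can hold Mmp9 at the cell surface, rose from 99.8 ± 23.2 to 217 ± 4.64 CPM. Lrp1, an endocytic receptor that clears metalloproteinases and TIMPs, rose from 406 ± 53.7 to 701 ± 30.0 CPM. Thbs2, a matricellular protein that binds Mmp2 for its clearance, rose from 210.1 ± 98.0 to 610.1 ± 17.8 CPM, and the related Thbs1 rose from 159 ± 57.4 to 398 ± 15.7 CPM. Lcn2, another gene of this list, rose from 0.683 ± 0.233 to 2.40 ± 0.298 CPM, a low level throughout. Cav1, the main protein of caveolae, fell from 589 ± 55.8 to 378 ± 26.9 CPM.

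Of 14 matrix substrates, 10 rose, 3 fell and 1 did not pass, with a median log2 fold change of 0.67. Under total-count scaling the 2 substrates lower in GPR174-KO were Col4a1 and Col4a2, chains of type IV collagen. Spp1, osteopontin, a secreted protein cut by Mmp3 among others, rose from 87.2 ± 52.2 to 484 ± 25.2 CPM (2.47, SE 0.42, adjusted p = 0.00355). The collagen chain Col5a1 rose from 892 ± 247 to 1946 ± 50.6 CPM, Fn1, fibronectin, from 1912 ± 590 to 3727 ± 42.5 CPM, and Vcan, versican, from 83.1 ± 18.7 to 162 ± 7.62 CPM. In all genes tested 3891 rose and 3972 fell. Under total-count scaling the counts higher and lower were 8 and 0 for the ADAM, 12 and 2 for the ADAMTS, 6 and 0 for the plasminogen, 8 and 2 for the surface partner and 10 and 2 for the substrate lists, against 7303 and 2010 of all genes.

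**Figure D5:**
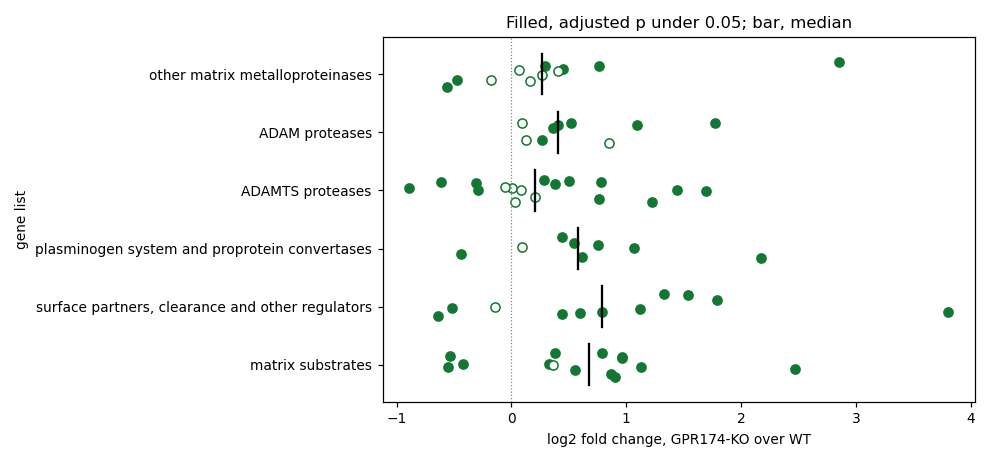
Log2 fold change of GPR174-KO over WT of each tested gene in 6 lists of related genes, 1 point per gene, filled where the adjusted p was under 0.05, with a bar at the list's median. The medians lie between 0.21 for the ADAMTS proteases and 0.79 for the surface partners and regulators; the points farthest right in the lists of other metalloproteinases and of surface partners are Mmp8 and A2m, fitted from at most 3 counts in any WT library.

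Markers of the cell types in the muscle moved with the groups as well. The 12 markers of mature muscle fibres, the labelled tissue, were present in every library and all fell, with a summed level of 164803, 143264 and 112954 CPM in WT replicates 1, 2 and 3 and 55348, 53102 and 49892 CPM in GPR174-KO replicates 1, 2 and 3. Acta1, skeletal actin, fell by 1.15 and Myh4, a fast myosin, fell by 1.49 on the log2 scale. Of 12 macrophage markers 11 rose and 1 did not pass, and their sum was 1627, 1994 and 2535 CPM in WT and 3766, 3796 and 3842 CPM in GPR174-KO. In both lists WT replicate 3 was the WT library nearest to GPR174-KO, as it was for Mmp9, Mmp12, Timp1 and Timp4. The macrophage markers Lyz2 and C1qb rose by 1.00 and 0.70 on the log2 scale. Of the 9 neutrophil markers, 3 had enough counts to be tested, and Csf3r (0.63) and Mmp8 rose while Cxcr2 (-0.57) fell. Under total-count scaling 2 of these 3 were higher and 0 lower. The summed level of the 9 was 22.5 to 29.6 CPM in WT and 33.5 to 36.9 CPM in GPR174-KO, most of it Csf3r, whose mean was 18.9 ± 4.44 CPM in WT and 29.3 ± 1.32 CPM in GPR174-KO. The 5 markers S100a8, S100a9, Retnlg, Mpo and Elane had at most 15 counts in any library, and Ly6g was at 0 in 5 of 6 libraries and at 1 count in the other. These 6 are named after their values were seen, to give the whole list. The part of neutrophils in the higher Mmp9 and Mmp8 of GPR174-KO was not tested.

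Of 10 fibroblast markers 4 rose, 4 fell and 2 did not pass, although the sum was higher in GPR174-KO (27744 to 31238 against 15497 to 22089 CPM). Col1a1 and Col3a1, its most abundant genes, rose by 0.87 and 0.56 on the log2 scale, and both are also among the matrix substrates. The median of the fibroblast list was -0.09, and 0.18 under total-count scaling. Under that scaling 5 of its genes were higher and 3, Dcn, Lum and Pi16, were lower. Of 9 endothelial markers 8 fell and 1 rose, with a sum of 1021 to 1216 CPM in WT and 655 to 743 CPM in GPR174-KO. Cdh5 and Pecam1, junction proteins of endothelial cells, fell by 0.82 and 0.63, in the direction of Timp3 and Timp4. Of 9 markers of regenerating fibres 6 rose and 3 did not pass, with overlapping sums (6550 to 8573 and 7556 to 9468 CPM), in which the most abundant, Actc1 and Myh8, did not pass (log2 fold changes of -0.28 and 0.20). The 7 smooth muscle and pericyte markers were split, 3 rising, Acta2 among them by 1.20, and 3 falling, Rgs5 among them (log2 fold change -0.82). The 5 adipocyte markers were split too, with Adipoq higher (0.90) and Fabp4 lower (-0.82). The T cell markers (5 tested), B cell markers (2) and erythroid markers (5) had no gene past the threshold in edgeR or DESeq2. At an unadjusted p under 0.05 they had 1, 0 and 0 in edgeR and 0, 0 and 1 in DESeq2. Under total-count scaling 2, 1 and 1 rose. In edgeR, 2 T cell markers passed without WT replicate 3. There 1 B cell marker passed without WT replicate 1 and 1 with the replicate block. Without GPR174-KO replicate 3, 4 erythroid markers passed. In the 3 limma fits on log2 FPKM, 1 or 2 T cell markers and 1 or 2 B cell markers passed. The part of any of these markers in the values of the metalloproteinases and TIMPs was not tested.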

How the data were processed

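RNA from ischemic gastrocnemius was sequenced for 3 WT and 3 GPR174-KO samples, on BGISEQ-500 per the methods and with an Illumina TruSeq kit per the labels. The submitters' processing notes name HISAT2 2.0.4, Bowtie2 2.2.5, RSEM 1.2.12 and build GRCm39, and strand use is not given in the sources used here. The deposited table lists 58843 RefSeq transcripts. Its estimated counts are reads assigned to transcripts by the authors, without normalization. Its FPKM and TPM were computed by the authors, scaled for transcript length and library size. Its group means, the authors' averages, were not used, and no column of values was left unmapped.

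Per gene, the transcripts of 1 Entrez identifier were summed and the sum rounded (18089 genes, 99.7% with a symbol). Groups were compared with edgeR 4.0.16 in R 4.3.3 (TMM scaling, default filtering, the robust quasi-likelihood F-test and Benjamini-Hochberg adjustment over 14395 genes), at an adjusted p of 0.05 and, where stated, an absolute log2 fold change above 1. The SE is the log2 fold change divided by the square root of F. The common dispersion was 0.00967. The labels give no batch, and p-values cover only the spread between these 3 samples per group.

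The 10 genes, the related lists and the markers were chosen with earlier results of these data known. Genes named from the lists are up to 4 past both thresholds with the largest change and up to 2 others with an adjusted p under 0.05, the 2 most abundant genes of each marker list, Gpr174 and Egr1, with a mean of at least 1 CPM except for the 10 genes and Gpr174. Outside this rule, and chosen after their values were seen, are Mmp8, Mmp10, Mmp13, Mmp1b, Mmp7, A2m, the genes that overlap the 10 and the low-count neutrophil markers. The same holds for Col4a1, Col4a2, Dcn, Lum and Pi16. Some results that this rule covers are not reported here. Alternatives were DESeq2 1.42.0, total-count scaling, no filter, a minimum of 10 counts per library, a replicate block, limma 3.58.1 on log2(FPKM + 1) with and without a filter (FPKM of at least 1 in 3 libraries) and on log2(FPKM + 0.1), replicates 1 and 3 only, and leaving out each library. Samples with the same number are different mice, and the main fit does not pair them. The correlations of their deviations were 0.00054, -0.00091 and -0.016. These values cannot show whether samples with the same number shared a batch. The fits were tested on simulated data with known changes. Promoters were read from a RefSeq table on GRCm38.p6, and gene order and overlaps from GRCm38 annotation, so no gene coordinates on the authors' build are given.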

Additional observations from a re-analysis of the deposited data

How the results depend on the processing

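Direction and side of the threshold were kept in 118 of 150 comparisons of the 10 genes with an alternative, 12 lost and 11 gained a call, and 9 changed sign, all of them Mmp2. Mmp9, Mmp12, Mmp19, Timp1, Timp3 and Timp4 passed in 14 of 15 alternatives, all but the fit with replicates 1 and 3 only, where their adjusted p values were 0.110, 0.0666, 0.0584, 0.0622, 0.0542 and 0.0607. Their log2 fold changes ranged over the alternatives from 2.19 to 3.50 for Mmp9, 2.39 to 3.34 for Mmp12, 0.65 to 1.02 for Mmp19, 1.04 to 1.51 for Timp1, -0.70 to -0.38 for Timp3 and -3.19 to -1.26 for Timp4. Mmp14 passed in 9 of 15, Timp2 in 6 and Mmp3 in 5. The 4 of the 10 genes past both thresholds numbered 0 with replicates 1 and 3 only (edgeR, 4 at an unadjusted p under 0.05) and 4 without any 1 library. The 7 at any fold change numbered 0 with replicates 1 and 3 only (6 unadjusted) and 6 to 9 with 1 library left out.

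The 1192 genes past both thresholds became 645 with limma on log2(FPKM + 1), 646 with the same and no filter, 0 with replicates 1 and 3 only (edgeR, 1049 unadjusted) and 924 to 1826 with 1 library left out, the highest without WT replicate 3. The 7863 genes at any fold change became 0 with replicates 1 and 3 only (5026 unadjusted) and 5457 to 9165 with 1 library left out. Fewer samples entered the fits that left libraries out. The cause of these and of the other shifts was not tested. The log2 fold change of Mmp2 was 0.27 with total counts, 0.0067 with no filter, 0.0023 with at least 10 counts in every library, 0.0028 with the replicate block, 0.28 in each of the 3 fits on log2 FPKM, and -0.064 to 0.087 with 1 library left out. The replicate block gave 1139 genes past both thresholds and, of the 10 genes, changed the call of Mmp14 only. DESeq2 and the fit with no filter kept low-count neutrophil markers that the main fit left out. The median log2 fold change of the neutrophil list, from 0.63, became -0.064 with DESeq2 and -0.049 with no filter. The median of the fibroblast list became 0.18 with total counts and in the 3 FPKM fits. That of the smooth muscle and pericyte list, -0.18, became 0.081 with total counts, 0.11 on log2(FPKM + 1) with and without the filter, 0.21 on log2(FPKM + 0.1) and -0.42 to 0.32 with 1 library left out. That of the nerve list became 0.063 with total counts and 0.00081 on log2(FPKM + 0.1). Of 541 comparisons for 37 other genes 483 kept their call and direction and 58 lost the call, with none changing sign. Depth limits Gpr174, Mmp8, Mmp10 and most neutrophil markers, which were at or near 3 counts in at least 1 group.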
